A study of Mus musculus with 8 samples.

Results

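The 39 genes described here encode the glutathione, thioredoxin and NRF2 antioxidant systems of the cell: the NRF2 pathway, glutathione enzymes, thioredoxins, peroxiredoxins, superoxide dismutases, catalase, the heme-breakdown enzymes and ferritin. They were taken by symbol from a table of 55226 genes, and all 39 were found in it. Their RNA was measured by poly(A) RNA sequencing in 8 samples of C57BL/6 mouse bone marrow-derived macrophages, cells grown from femur marrow for 7 days with 10 ng/ml M-CSF and 10% serum. The samples fell into 4 groups of 2: PtipWT cells (WT) without LPS (0 h), WT cells after 6 h of LPS at 100 ng/ml, PtipcKO cells (cKO) without LPS, and cKO cells after 6 h of LPS. PTIP, the product of Paxip1, is an adaptor protein of a histone methyltransferase complex, and LPS is a bacterial cell wall component sensed by macrophages. The sources used here give neither the Cre line, the deleted exons nor the age and sex of the mice, and do not state whether replicate numbers mark mice. The p-values therefore measure only the spread between these samples, which may be partly technical. Values are rlog, a log2 expression scale on which genes with few reads are pulled toward their mean, so 1 unit is about 2-fold and differences of low genes are understated.

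Paxip1 served as the check of the genotype labels. Its rlog was 4.5 and 4.5 in untreated WT, 3.82 and 4.08 in LPS-treated WT, 2.54 and 2.48 in untreated cKO, and 2.54 and 2.63 in LPS-treated cKO. All 4 cKO samples lay below all 4 WT samples. The cKO minus WT difference was -1.99 (SE 0.18, adjusted p = 0.00686) without LPS and -1.36 (SE 0.18, adjusted p = 0.0156) with it. The cKO values lay below the mean rlog of 3 required for testing, so Paxip1 entered the test only through the WT groups. These differences are therefore given as a description, and the check rests on the separation of the samples. The call at 0 h was lost without cKO 0 h replicate 2 (-1.96, adjusted p = 0.0625) or WT 0 h replicate 1 (-1.99, adjusted p = 0.0732). After LPS it was lost without cKO LPS replicate 1 (-1.32, adjusted p = 0.1) or 2 (-1.41, adjusted p = 0.15) or WT LPS replicate 1 (-1.5, adjusted p = 0.0642). The authors' own test put Paxip1 at -4.75 in untreated cells, with an adjusted p of 0.00196. It did not call the difference under LPS, which was -4.04. Only transformed values were at hand, so sample depth is unknown. Replicates of a group had r = 0.987 to 0.992 across genes, which are not independent replicates. The 6 macrophage markers were all well detected, with Lyz2, Adgre1, Cd68 and Csf1r among them. None of the 8 erythroid markers, the 6 fibroblast markers and the 6 T, B and NK cell markers had a mean rlog of at least 3, and Hbb-bt of the erythroid list was listed at 0. Of the 4 dendritic cell markers and of the 4 mast cell and basophil markers, 2 each passed that level.

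Macrophages make superoxide and hydrogen peroxide when they meet bacteria, and they need enzymes that limit the damage to themselves. Superoxide dismutases turn superoxide into hydrogen peroxide, which catalase, the glutathione peroxidases and the peroxiredoxins then remove. The peroxidases are recharged by glutathione and thioredoxin, which are in turn reduced by their reductases with NADPH. NRF2, a transcription factor that KEAP1 sends for degradation in unstressed cells, binds antioxidant response elements and drives many of these genes.

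A gene was tested where its mean rlog over the 8 samples was at least 3, which kept 36 of the 39 genes. The 3 left out were Me1, the cytosolic malic enzyme that makes NADPH, Sod3, the extracellular superoxide dismutase, and Gpx8, a glutathione peroxidase-like protein of the endoplasmic reticulum. Me1 ranged from 2.52 to 3.37 and Sod3 from 2.24 to 3.74 over the 8 samples, and Gpx8 stood at -2.31 in all 8. Sod3 read 2.37 and 2.81 in WT at 0 h against 2.99 and 3.41 after LPS, and 2.24 and 2.60 in cKO at 0 h against 2.99 and 3.74 after LPS. In the authors' deposited table neither its LPS difference in WT (1.61, adjusted p = 0.370) nor that in cKO (2.90, adjusted p = 0.0707) passed 0.05.

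Per kilobase of exon, the ferritin chains Fth1 (mean rlog per kilobase 15.95) and Ftl1 (15.95) were the most abundant of the 39 RNAs. Next came Prdx1 (14.37), Prdx5 (12.61), Gstm1 (12.21) and Gpx1 (12.11). At the low end of the 36 tested genes were Gclc (3.55) and Gclm (3.69), the catalytic and modifier subunits of glutamate-cysteine ligase, the rate-limiting enzyme of glutathione synthesis. Mgst2 (5.10), Gss (5.27) and both thioredoxin reductases, Txnrd1 (5.78) and Txnrd2 (5.03), also lay in the lower part of the order. These are levels relative to exon length and rest on the annotated exons. Ferritin, peroxiredoxin and glutathione transferase genes have close relatives or processed copies in the mouse genome. How reads that match several genes were counted is not known here, so these levels are uncertain.

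LPS moved these genes in both directions by about equal numbers. In WT cells 10 of the 36 rose and 10 fell, 27.8% each, where 22.5% of all 11543 tested genes rose and 19.7% fell at an adjusted p under 0.05. In cKO cells 8 rose and 8 fell, 22.2% each, against 19.6% and 17.5% of all tested genes. With limma these shares are close to the background. The median difference of the 36 was -0.12 in WT and -0.07 in cKO, beside -0.01 and -0.02 for all tested genes. The 8 genes that rose in cKO were all among the 10 that rose in WT, and the 8 that fell in cKO were all among the 10 that fell in WT. The LPS comparisons of the genotypes use different samples. The 4 genes called in WT alone were Prdx1 and Prdx4, which rose, and Txnrd2 and Sod1, which fell. No gene was called in opposite directions, and 16 were called in neither genotype. Some markers of other cells moved with LPS as well. The log2 summed level of the 4 dendritic cell markers was 4.39 to 4.46 in WT without LPS and 5.14 to 5.66 with it, and 3.97 to 4.52 and 4.97 to 5.09 in cKO. Xcr1 (1.15 and 0.90) and Zbtb46 (0.90 and 0.81) of that list rose in both genotypes. The summed level of the 4 mast cell and basophil markers was 4.49 to 4.88 and 5.05 to 5.85 in WT, and 4.82 to 5.47 and 5.18 to 5.39 in cKO, and Cpa3 rose in WT (1.07). The neutrophil markers S100a8 (0.65) and Camp (1.19) rose in WT, and Camp (1.84) rose in cKO. Of these marker rises the authors' deposited table called Xcr1 in WT (adjusted p = 0.0218) and Camp in cKO (adjusted p = 8.5e-06). It did not call Zbtb46 in either genotype, Xcr1 in cKO, or Cpa3, S100a8 and Camp in WT. The part of these markers in the LPS results was not tested.

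**Figure D1:**
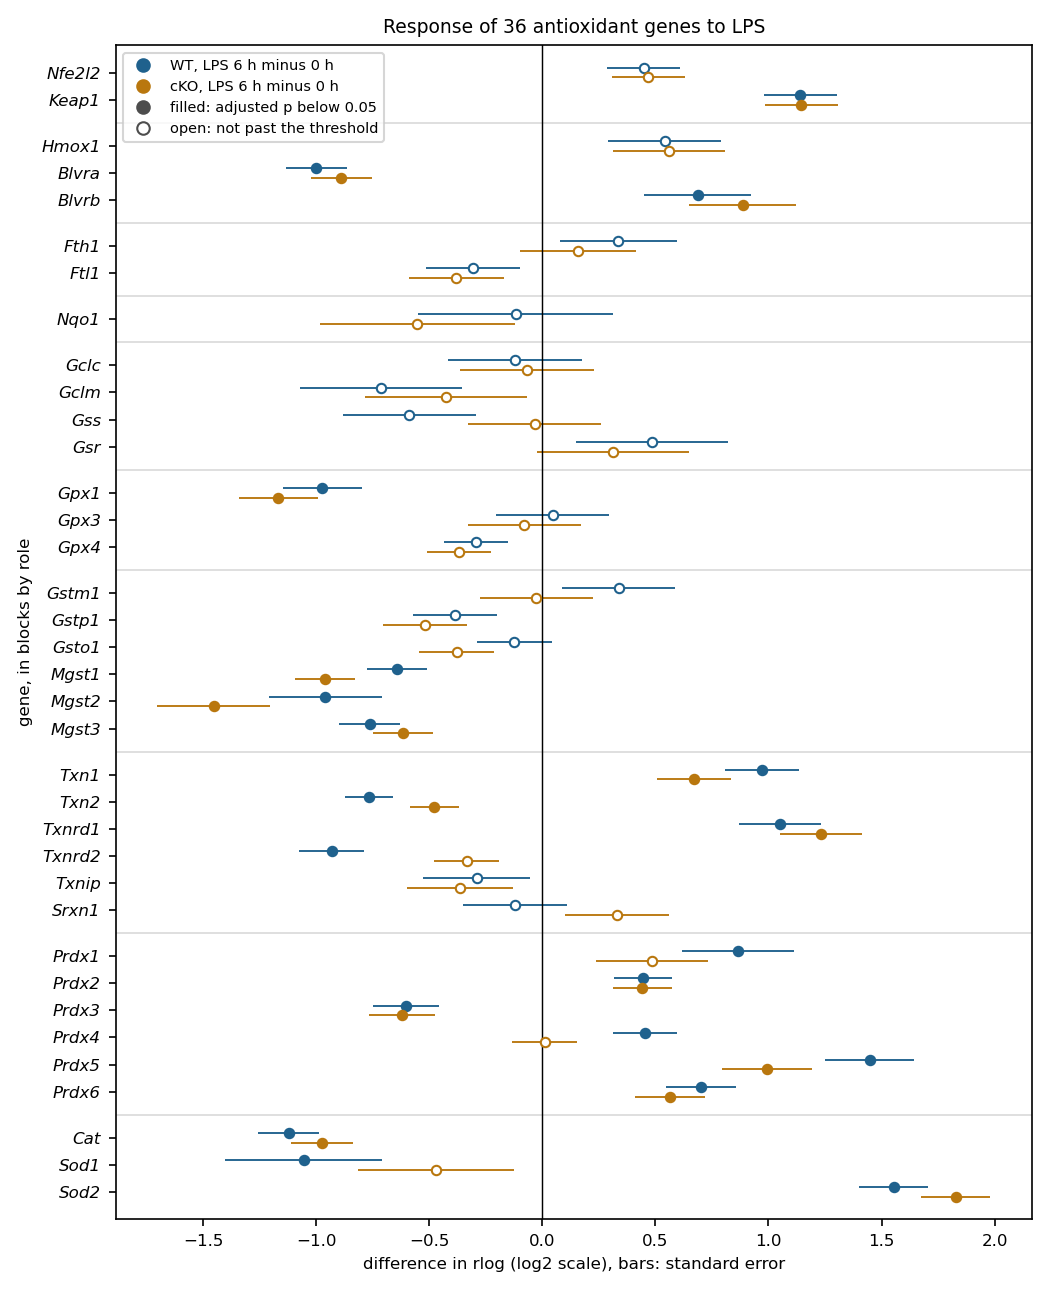
LPS 6 h minus 0 h difference in rlog (x axis, log2 scale) for the 36 tested antioxidant genes (y axis, in blocks by role), with WT in blue and cKO in orange, bars for the standard error and filled points for an adjusted p under 0.05. Sod2, Prdx5, Txnrd1 and Keap1 lie farthest to the right, Cat lies farthest to the left in WT and Mgst2 in cKO, and the 4 glutathione synthesis and recycling genes have open points in both genotypes.

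In the authors' deposited table, which covers the same samples with the authors' own test, 7 of the 36 genes were higher and 9 lower after LPS in WT. The background there was 16.1% of the 11543 genes higher and 12.1% lower. In cKO 10 were higher and 8 lower, where the background was 15.9% and 11.5%. Each of these shares of the 36 lay above its background, and the gap was not tested. The differences from the counts above were Blvrb, Prdx2, Prdx4 and Prdx3 in WT, which the authors' table did not call. In cKO the authors' table did not call Prdx2, and it called Hmox1 (0.63, adjusted p = 0.0337), Nfe2l2 (0.51, adjusted p = 0.0299) and Prdx1 (0.53, adjusted p = 0.0262) higher.

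Another normalization changed the balance. Quantile normalization, which gives every sample the same distribution of values, lowered the LPS difference of abundant genes in general. Its median effect in WT was -0.36 for the 2129 tested genes with a mean rlog from 9 to 12 and -0.71 for the 279 genes from 12 upward, and in cKO it was -0.28 and -0.50. For the antioxidant genes in those ranges it was -0.46 over 16 genes and -0.67 over 7 genes in WT. After it 4 of the 36 rose and 12 fell in WT, and 3 rose and 11 fell in cKO. The balance of all 11543 genes moved in the same direction, to 2220 higher and 2771 lower in WT from 2598 and 2273, and to 2012 higher and 2501 lower in cKO from 2260 and 2015. The 4 that still rose in WT were Keap1, Txnrd1, Prdx5 and Sod2, and the 3 in cKO were Keap1, Txnrd1 and Sod2. For the rises of the other members the call depended on this choice.

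**Figure D2:**
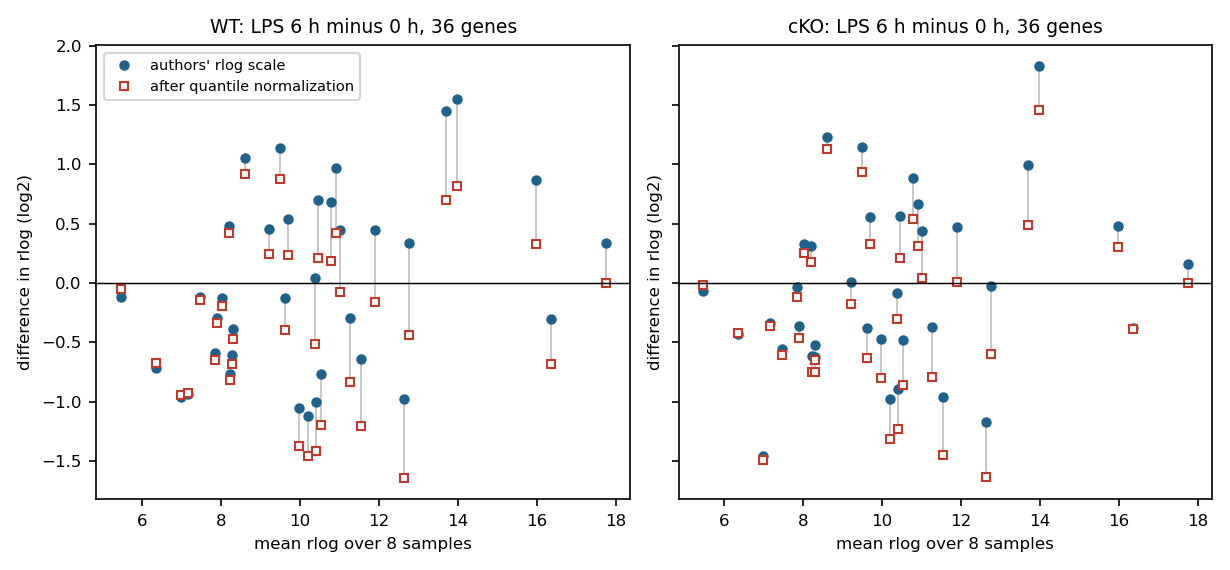
LPS 6 h minus 0 h difference in rlog (y axis, log2 scale) against mean rlog over the 8 samples (x axis) for the 36 tested antioxidant genes in WT (left) and cKO (right), with filled circles for the authors' scale, open squares after quantile normalization and a grey line joining the same gene. The squares lie below the circles for most genes above a mean rlog of 9, by a median of 0.46 log2 units in WT between 9 and 12.

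Keap1, the inhibitor of NRF2, rose after LPS in both genotypes, while the smaller increase of Nfe2l2, the gene of NRF2, missed the threshold. Keap1 (chr9:21229730-21239361, minus strand, GRCm38) read 8.77 and 8.93 in WT at 0 h and 9.98 and 10.00 after LPS. In cKO it read 8.77 and 9.24 at 0 h and 10.14 and 10.16 after LPS. No LPS sample overlapped an untreated one, and the rise was 1.14 (SE 0.16, adjusted p = 0.000722) in WT and 1.15 (SE 0.16, adjusted p = 0.000917) in cKO, 2.21-fold in each. Nfe2l2 (chr2:75675513-75704641, minus strand) read 11.49 and 11.96 in untreated WT, 12.15 and 12.20 after LPS, 11.66 and 11.61 in untreated cKO, and 12.14 and 12.06 after LPS. Its LPS samples lay above the untreated ones in both genotypes, with differences of 0.45 (SE 0.16, adjusted p = 0.0549) in WT and 0.47 (SE 0.16, adjusted p = 0.0519) in cKO. Under quantile normalization the Nfe2l2 differences were -0.16 and 0.01, whereas Keap1 kept its call at 0.88 and 0.94. The exons of Keap1 share 510 bases, 10.9% of their length, with Gm16754 on the opposite strand. Whether reads were counted by strand is not stated. Neither Keap1 nor Nfe2l2 differed between genotypes past the threshold at 0 h or after LPS.

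The promoter windows of the members differ in whether they hold an antioxidant response element core, and members that hold one there did not move together. RefSeq promoter windows of GRCm38.p6, from 250 bases before to 50 bases after a start site, were found for 34 of the 39 genes. Hmox1, Gclc, Gsr, Prdx6 and Sod3 had none. Sequence outside the windows was not searched, so a gene without a match may hold an element elsewhere. The core TGACNNNGC, searched on both strands, was present in 9 of the 34 (26.5%) and in 14.0% of the 27025 genes of that table. The 9 were Blvra, Gclm, Me1, Mgst1, Nfe2l2, Prdx1, Sod1, Srxn1 and Txnrd1. Of these, Txnrd1 rose with LPS in both genotypes, Prdx1 rose in WT, Mgst1 and Blvra fell in both, and Sod1 fell in WT. Gclm, Nfe2l2 and Srxn1 passed the threshold in neither genotype, and Me1 was not tested. The stretches around the core in 5 of the promoters are shown on the strand of the gene, with the core in capitals (here in its reverse complement), because their genes went opposite ways with LPS or did not pass the test. They lie at chr4:116685451-116685489 for Prdx1, chr10:82859099-82859137 for Txnrd1, chr6:138140456-138140494 for Mgst1, chr2:127070593-127070631 for Blvra and chr3:122245408-122245446 for Gclm.
Prdx1: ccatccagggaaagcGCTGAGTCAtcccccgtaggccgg
Txnrd1: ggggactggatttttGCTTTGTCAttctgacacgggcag
Mgst1: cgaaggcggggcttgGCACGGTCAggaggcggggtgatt
Blvra: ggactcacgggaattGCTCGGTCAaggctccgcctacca
Gclm: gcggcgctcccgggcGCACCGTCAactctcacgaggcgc
The core of Prdx1 overlaps an AP-1 site, TGANTCA, which 14.7% of the 34 genes and 8.97% of all genes of the RefSeq table held. A match is a description of the letters in the window and does not show that NRF2 binds there.

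Heme breakdown yields iron, carbon monoxide and bile pigments. With limma the biliverdin reductase genes went opposite ways, though the rise of Blvrb depended on the processing. Blvra, biliverdin reductase A, fell in both genotypes: it read 10.94 and 11.05 in WT at 0 h and 9.87 and 10.12 after LPS, and 10.69 and 10.82 in cKO at 0 h and 9.78 and 9.95 after LPS. The falls were -1.0 (SE 0.13, adjusted p = 0.000552) and -0.89 (SE 0.13, adjusted p = 0.0013), and no LPS sample reached an untreated one. Blvrb, biliverdin reductase B, which also reduces flavins, read 10.05 and 10.87 in untreated WT, 11.11 and 11.19 after LPS, 10.23 and 10.39 in untreated cKO, and 11.08 and 11.31 after LPS. It rose by 0.69 (SE 0.24, adjusted p = 0.0456) in WT and by 0.89 (SE 0.24, adjusted p = 0.0191) in cKO. After quantile normalization the rises of Blvrb were 0.18 (adjusted p = 0.595) and 0.54 (adjusted p = 0.134), both short of the threshold. With no filter on low values the adjusted p was 0.168 and 0.103. The authors' deposited table did not call Blvrb in WT (0.65, adjusted p = 0.118) and called it higher in cKO (0.97, adjusted p = 3.52e-05). The WT rise of Blvrb was lost without any single library but WT 0 h replicate 2. It fell to 0.28 without WT 0 h replicate 1 and came to 1.10 without WT 0 h replicate 2. The cKO rise of Blvrb missed the threshold without cKO 0 h replicate 1 (0.81, adjusted p = 0.0859) and without LPS replicate 1 (1.0, adjusted p = 0.0538) or 2 (0.77, adjusted p = 0.117).

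Hmox1, heme oxygenase, the enzyme that opens the heme ring and a well-known NRF2 target, did not pass the test. Its values were 9.49 and 9.51 in untreated WT, 10.47 and 9.62 after LPS, 9.28 and 9.36 in untreated cKO, and 10.06 and 9.71 after LPS. All LPS samples lay above the untreated ones, but the LPS samples of WT were far apart, and the differences were 0.54 (adjusted p = 0.114) and 0.56 (adjusted p = 0.112). The ferritin chains, which store the released iron, had LPS differences of 0.34 and 0.16 for Fth1 and of -0.31 and -0.38 for Ftl1 in WT and cKO, none past the threshold. After quantile normalization Ftl1 passed it in WT, at -0.69 (adjusted p = 0.0136). Nqo1, a quinone reductase often used as a readout of NRF2, read 6.81 and 8.11 in WT at 0 h, a gap wider than any of its group differences. Its LPS differences were -0.12 in WT and -0.55 in cKO, neither past the threshold.

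The 4 genes that make and recycle glutathione did not pass the LPS test in either genotype. Their LPS differences ran from -0.71 to 0.48 in WT and from -0.43 to 0.31 in cKO. Gclm had the lowest values, at -0.71 (SE 0.36, adjusted p = 0.144) in WT and -0.43 in cKO. Gsr, glutathione reductase, had the highest, at 0.48 and 0.31. Gss, glutathione synthetase, stood at -0.59 and -0.03, and Gclc at -0.12 and -0.07.

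Outside the 39, 6 genes of cystine uptake and of glutathione breakdown and export were tested. In each genotype 5 of them rose and none fell, where 22.5% and 19.6% of all tested genes rose. The 5 were Slc7a11 and Slc3a2, the chains of the cystine carrier, Chac2 and Ggct, which act in glutathione breakdown, and Abcc1, an exporter of glutathione conjugates. Slc7a11 read 10.86 and 10.91 in untreated WT, 12.89 and 13.33 after LPS, 9.89 and 9.85 in untreated cKO, and 12.54 and 12.44 after LPS. It rose by 2.22 (SE 0.16, adjusted p = 2.36e-05) in WT and by 2.62 (SE 0.16, adjusted p = 2.1e-05) in cKO, with no overlap of the groups. After quantile normalization the rises of Slc7a11 were 1.51 and 2.26.

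Among the glutathione peroxidases, which use glutathione to reduce peroxides, Gpx1 fell with LPS and the others did not pass the test. Gpx1, the main cytosolic form (chr9:108338903-108340343), read 13.12 and 12.94 in WT at 0 h and 12.25 and 11.87 after LPS. In cKO it read 13.42 and 13.20 at 0 h and 12.26 and 12.03 after LPS. All 4 LPS samples lay below all 4 untreated samples, and the falls were -0.97 (SE 0.18, adjusted p = 0.00251) in WT and -1.17 (SE 0.18, adjusted p = 0.00123) in cKO. Gpx4, which reduces lipid peroxides in membranes and guards against ferroptosis, differed by -0.29 (adjusted p = 0.127) and -0.37 (adjusted p = 0.0708). After quantile normalization Gpx4 passed the threshold in both genotypes, at -0.83 (adjusted p = 0.00189) and -0.79 (adjusted p = 0.00273). Gpx3 hardly moved with LPS, at 0.04 in WT and -0.08 in cKO.

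Of the glutathione transferases, all 3 membrane-bound microsomal forms fell in both genotypes and none of the 3 cytosolic ones passed the threshold. Of all tested genes 19.7% fell in WT and 17.5% in cKO. The 2 kinds were not tested against each other, and in cKO all 6 differences were below 0. Mgst2, which can also make leukotriene C4, had the deepest fall. It read 7.93 and 7.18 in untreated WT, 6.67 and 6.52 after LPS, 7.79 and 7.47 in untreated cKO, and 6.31 and 6.04 after LPS. The groups did not overlap, and the differences were -0.96 (SE 0.25, adjusted p = 0.0148) in WT and -1.45 (SE 0.25, adjusted p = 0.00246) in cKO. Without WT 0 h replicate 1 the WT fall of Mgst2 was -0.59 (adjusted p = 0.0902), and without WT LPS replicate 2 it was -0.88 (adjusted p = 0.0642). Mgst1 fell by 0.64 and 0.96 and Mgst3 by 0.76 and 0.62 on the log2 scale in WT and cKO. The Mgst3 call in cKO was lost without cKO LPS replicate 1 (-0.60, adjusted p = 0.050). The cytosolic transferases Gstm1, Gstp1 and Gsto1 had differences from -0.39 to 0.34 in WT and from -0.52 to -0.03 in cKO. After quantile normalization Gstp1 (-0.65, adjusted p = 0.0307) and Gsto1 (-0.63, adjusted p = 0.0272) passed the threshold in cKO.

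In the thioredoxin system the cytosolic Txn1 and Txnrd1 rose in both genotypes. The mitochondrial Txn2 fell in both, and Txnrd2 fell in WT. Txn1, cytosolic thioredoxin, read 10.24 and 10.68 in untreated WT, 11.44 and 11.42 after LPS, 10.65 and 10.43 in untreated cKO, and 11.27 and 11.15 after LPS. Txnrd1, its reductase (chr10:82833951-82897712), read 7.94 and 8.22, then 8.95 and 9.32, in WT and 7.82 and 8.16, then 9.17 and 9.28, in cKO. For both genes the LPS samples lay above the untreated ones without overlap. Txn1 rose by 0.97 (adjusted p = 0.00182) in WT and 0.67 (adjusted p = 0.013) in cKO, and Txnrd1 by 1.05 (SE 0.18, adjusted p = 0.00194) and 1.23 (SE 0.18, adjusted p = 0.00107). The Txn1 rise missed the threshold after quantile normalization, at 0.42 in WT and 0.31 in cKO. In cKO it also missed it without cKO 0 h replicate 2 (0.56) and without LPS replicate 1 (0.61) or 2 (0.73).

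Txn2, mitochondrial thioredoxin, read 10.81 and 10.87 in WT at 0 h and 10.10 and 10.06 after LPS, and 10.81 and 10.84 in cKO at 0 h and 10.35 and 10.34 after LPS. The replicates were close together and the groups far apart, with falls of -0.77 (SE 0.11, adjusted p = 0.000666) in WT and -0.48 (SE 0.11, adjusted p = 0.00869) in cKO. The cKO fall of Txn2 had an adjusted p of 0.0547 without cKO LPS replicate 1 (-0.48) and of 0.0614 without replicate 2 (-0.47). Txnrd2, the mitochondrial thioredoxin reductase (chr16:18426384-18479073), read 7.44 and 7.62 in untreated WT, 6.64 and 6.55 after LPS, 7.51 and 7.38 in untreated cKO, and 7.07 and 7.15 after LPS. It fell in WT by 0.93 on the log2 scale (SE 0.14, adjusted p = 0.00115), and its difference in cKO was -0.33 (SE 0.14, adjusted p = 0.103). Txnip, the inhibitor of thioredoxin, and Srxn1, which repairs overoxidised peroxiredoxins, passed the threshold in neither genotype, with differences of -0.29 and -0.12 in WT and -0.36 and 0.33 in cKO.

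Most of the calls among the peroxiredoxins, thiol peroxidases that for the most part draw on thioredoxin, were rises. In WT 5 of the 6 rose and Prdx3, the form confined to mitochondria, fell, where 22.5% of all tested genes rose and 19.7% fell. In cKO Prdx2, Prdx5 and Prdx6 rose and Prdx3 fell, where 19.6% of all tested genes rose and 17.5% fell. The authors' deposited table called Prdx1, Prdx5 and Prdx6 higher in both genotypes and Prdx3 lower in cKO alone. Prdx5 (chr19:6906697-6910106, minus strand), found in mitochondria, peroxisomes and cytosol, had the largest rise. It read 12.94 and 13.48 in untreated WT, 14.62 and 14.70 after LPS, 12.88 and 13.08 in untreated cKO, and 13.90 and 14.05 after LPS. The groups did not overlap, and the rises were 1.45 (SE 0.20, adjusted p = 0.000582) and 0.99 (SE 0.20, adjusted p = 0.00494). The exons of Prdx5 share 409 bases, 19.1% of their length, with Trmt112 on the opposite strand.

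Prdx3 read 8.56 and 8.66 in untreated WT, 7.85 and 8.16 after LPS, 8.56 and 8.61 in untreated cKO, and 8.05 and 7.88 after LPS. All 4 LPS samples lay below the untreated ones, and the falls were -0.60 (SE 0.15, adjusted p = 0.0108) and -0.62 (SE 0.15, adjusted p = 0.0111). The call was lost in WT without WT 0 h replicate 2 (-0.56, adjusted p = 0.0586) or LPS replicate 1 (-0.45, adjusted p = 0.0583). In cKO it was lost without cKO 0 h replicate 2 (-0.59, adjusted p = 0.0538) or LPS replicate 2 (-0.54, adjusted p = 0.0838).

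The other rises were smaller than that of Prdx5. Prdx1, one of the most abundant RNAs of the set, rose by 0.87 (SE 0.25, adjusted p = 0.0222) in WT and differed by 0.48 (adjusted p = 0.163) in cKO. Prdx6, which also acts on phospholipids, rose by 0.70 and 0.56. Prdx4, the secretory-pathway form, rose by 0.45 (adjusted p = 0.0317) in WT and differed by 0.01 in cKO. Prdx2 rose by 0.44 in both genotypes, but after quantile normalization its values were -0.08 in WT and 0.04 in cKO. The exons of Prdx2 share 173 bases, 5.67% of their length, with Junb and 177 bases with Rnaseh2a, both on the opposite strand. After the same normalization Prdx1 (0.33), Prdx4 (0.25) and Prdx6 (0.21) missed the threshold in WT, as did Prdx5 (0.49) and Prdx6 (0.21) in cKO. Single libraries also mattered for these smaller rises. The WT call was lost without WT 0 h replicate 1 for Prdx1 (0.56), Prdx2 (0.33) and Prdx4 (0.39). It was lost without WT 0 h replicate 2 for Prdx4 (0.52), and without WT LPS replicate 1 for Prdx2 (0.39) and Prdx4 (0.48). Without WT LPS replicate 2 it was lost for Prdx1 (0.75) and Prdx4 (0.43). In cKO, Prdx2 missed the threshold without 0 h replicate 1 (0.36) or LPS replicate 1 (0.43) or 2 (0.46). Prdx6 missed it there without 0 h replicate 1 (0.63) or 2 (0.50) or LPS replicate 1 (0.39).

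Catalase and the superoxide dismutases held both the largest rise and the largest WT fall of the 36 genes. Sod2, the mitochondrial manganese enzyme (chr17:13006846-13040063), read 13.37 and 13.33 in untreated WT, 14.97 and 14.83 after LPS, 12.82 and 13.06 in untreated cKO, and 14.75 and 14.79 after LPS. The LPS samples all lay more than 1 unit above the untreated ones, and the rises were 1.55 (SE 0.15, adjusted p = 0.000109) in WT and 1.83 (SE 0.15, adjusted p = 7.15e-05) in cKO, 2.94-fold and 3.55-fold. The Sod2 promoter window holds a match to the NF-kB consensus, which 17.6% of the 34 genes and 9.55% of all genes of the RefSeq table held. That stretch is shown because Sod2 had the largest rise, with the match in capitals, at chr17:13007741-13007780.
Sod2: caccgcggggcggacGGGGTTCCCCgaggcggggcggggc
The same consensus was found in the windows of Prdx1, which rose in WT, of Gpx1 and Cat, which fell, and of Ftl1 and Gpx3, which passed the LPS test in neither genotype. Cat, catalase (chr2:103453849-103485160, minus strand), read 10.59 and 10.86 in untreated WT, 9.50 and 9.70 after LPS, 10.75 and 10.71 in untreated cKO, and 9.78 and 9.73 after LPS. The groups did not overlap, and the falls were -1.12 (SE 0.14, adjusted p = 0.000299) and -0.97 (SE 0.14, adjusted p = 0.000822).

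Sod1, the cytosolic copper-zinc enzyme, read 10.54 and 10.29 in untreated WT, 8.74 and 9.97 after LPS, 10.05 and 10.55 in untreated cKO, and 9.83 and 9.83 after LPS. The low mean of WT after LPS came mostly from its replicate 1. The WT fall was -1.06 (SE 0.35, adjusted p = 0.038), and the cKO difference was -0.47 (adjusted p = 0.324). Without WT LPS replicate 1 the WT difference was -0.44 (adjusted p = 0.156), and without WT LPS replicate 2 it was -1.67. It also missed the threshold without WT 0 h replicate 1 (-0.93, adjusted p = 0.157) or 2 (-1.18, adjusted p = 0.0829), and at an unchanged -1.06 without cKO LPS replicate 1 (adjusted p = 0.0616) or 2 (adjusted p = 0.0614).

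**Figure D3:**
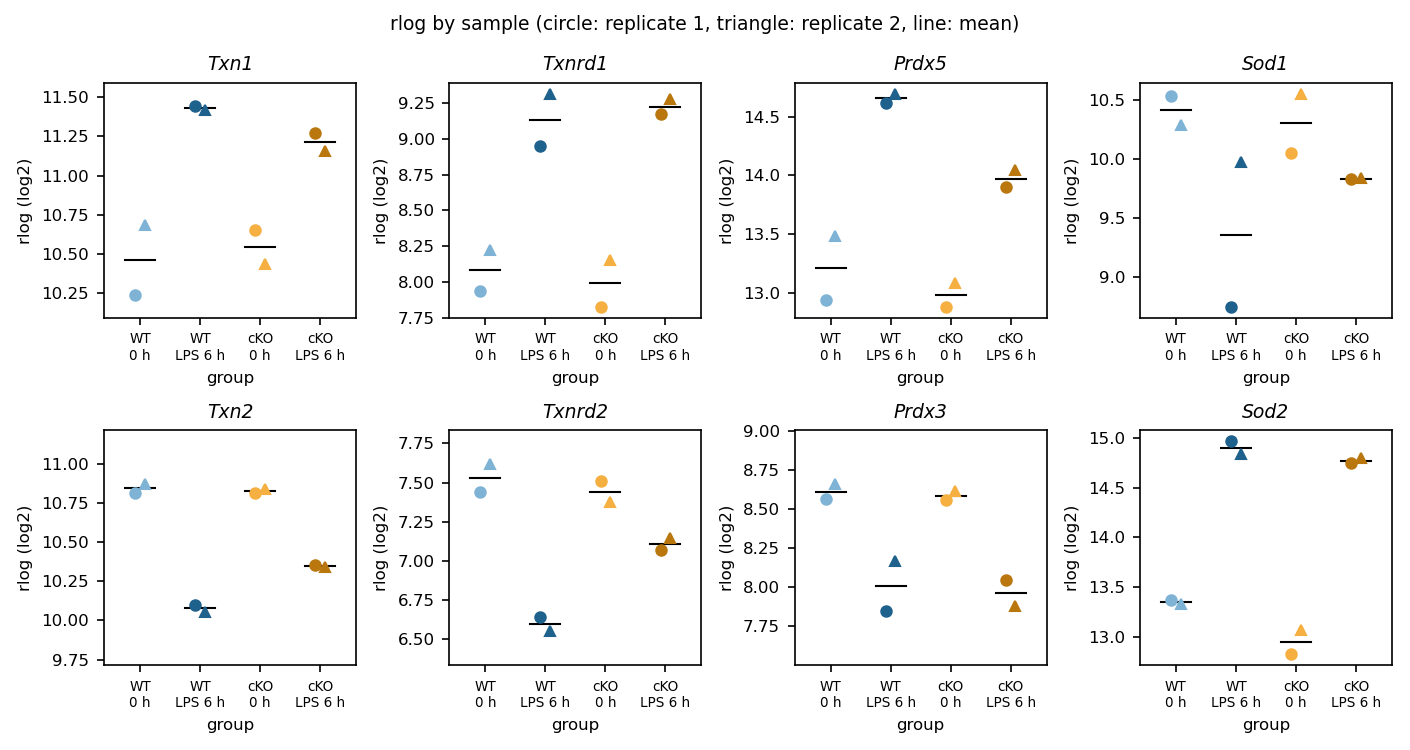
rlog (y axis, log2 scale, a separate range for each gene) in each of the 8 samples by group (x axis) for Txn1, Txnrd1, Prdx5 and Sod1 in the upper row and the mitochondrial forms Txn2, Txnrd2, Prdx3 and Sod2 in the lower row, with a circle for replicate 1, a triangle for replicate 2 and a line for the mean. Txn2, Txnrd2 and Prdx3 are lower after LPS and Sod2 is higher, and WT LPS replicate 1 stands alone at 8.74 for Sod1.

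The protein products of the lower row are known to work in mitochondria, and their genes did not all move one way: Sod2 rose while Txn2 and Prdx3 fell. The genes that were called in the same direction under all 8 other processing settings and after leaving out each of the 8 libraries in turn numbered 11 in WT. They were Keap1, Txnrd1, Prdx5 and Sod2 among the rises and Cat, Gpx1, Mgst1, Mgst3, Blvra, Txn2 and Txnrd2 among the falls. In cKO they numbered 8, with Keap1, Txnrd1 and Sod2 among the rises and Cat, Gpx1, Mgst1, Mgst2 and Blvra among the falls.

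Between the genotypes, Gpx3 was the only one of the 36 genes past the threshold, and it was lower in cKO both at 0 h and after LPS. Gpx3 encodes the secreted glutathione peroxidase (chr11:54902453-54910377, GRCm38). Its rlog was 10.97 and 11.76 in untreated WT, 11.23 and 11.59 in LPS-treated WT, 9.55 and 9.23 in untreated cKO, and 9.33 and 9.30 in LPS-treated cKO. Every cKO sample lay more than 1 unit below every WT sample. Without LPS the difference was -1.97 (SE 0.25, adjusted p = 0.0284), 3.92-fold lower. With LPS it was -2.10 (SE 0.25, adjusted p = 0.0128), 4.28-fold lower. Across all tested genes 0.052% were higher and 0.199% lower in cKO at 0 h, and 1.51% were higher and 2.46% lower after LPS. None of the 36 was higher at either time. An unadjusted p under 0.05 was reached by 4 of them at 0 h and by 7 after LPS. Among all 11543 tested genes 1256 and 2483 reached it, which are similar shares. In the authors' deposited table Gpx3 differed by -2.21 (adjusted p = 1.3e-10) at 0 h and by -2.26 (adjusted p = 1.16e-18) after LPS.

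The direction of Gpx3 held in every setting run, but its call did not. At 0 h the call was lost without cKO 0 h replicate 2 (-1.81, adjusted p = 0.161) and, at the same -1.97, without cKO LPS replicate 1 (adjusted p = 0.0951) or 2 (adjusted p = 0.0949). After LPS it was lost without cKO LPS replicate 1 (-2.11, adjusted p = 0.0948) or 2 (-2.08, adjusted p = 0.139) and without WT LPS replicate 1 (-2.27, adjusted p = 0.0539). Marker genes of other states of these cells moved with the genotype as well. The summed level of the 6 macrophage markers, on a log2 scale, was 19.16 to 19.44 in the WT samples and 18.37 to 18.69 in the cKO samples. That sum is mostly Lyz2, which ran from 18.13 to 19.31 and differed by -0.76 (adjusted p = 0.433) at 0 h and -1.07 (adjusted p = 0.0899) after LPS. Of the 6, Itgam (-1.11, adjusted p = 0.0178) and Mertk (-1.10, adjusted p = 0.0197) were called lower in cKO after LPS. The differences of the others at 0 h and after LPS were -0.54 and -0.45 for Adgre1, -0.45 and -0.04 for Csf1r and 0.23 and 0.17 for Cd68, none past the threshold. The summed level of the 8 neutrophil and granulocyte precursor markers was 6.79 to 7.37 in WT and 7.93 to 8.01 in cKO at 0 h, and 7.55 to 8.06 in WT and 8.53 to 8.74 in cKO after LPS. Only S100a8 and Camp of that list had a mean rlog of at least 3, and Ly6g, a defining marker of neutrophils, stood near -2.0 in all 8 samples. With limma neither S100a8 nor Camp passed the threshold between genotypes, at differences of 0.18 to 1.03 at 0 h and 0.83 to 0.88 after LPS. By the authors' own test Lyz2 was lower in cKO untreated (-0.81, adjusted p = 0.0231) as well as LPS-treated (-1.12, adjusted p = 2.26e-06). Itgam was called lower by that test in untreated cells too (-0.85, adjusted p = 0.0209). S100a8 was higher by that test in untreated cKO (1.18, adjusted p = 0.030) and stayed so under LPS (1.05, adjusted p = 0.0132). S100a9, Mpo and Ltf of the same list had differences below 0 at both times, none of them called. That test also called Itgam and Mertk lower after LPS, and left Adgre1, Csf1r, Cd68 and Camp uncalled throughout. The part of these markers in the Gpx3 result was not tested. In such bulk samples, fewer cells that make an RNA and less of it per cell cannot be told apart.

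**Figure D4:**
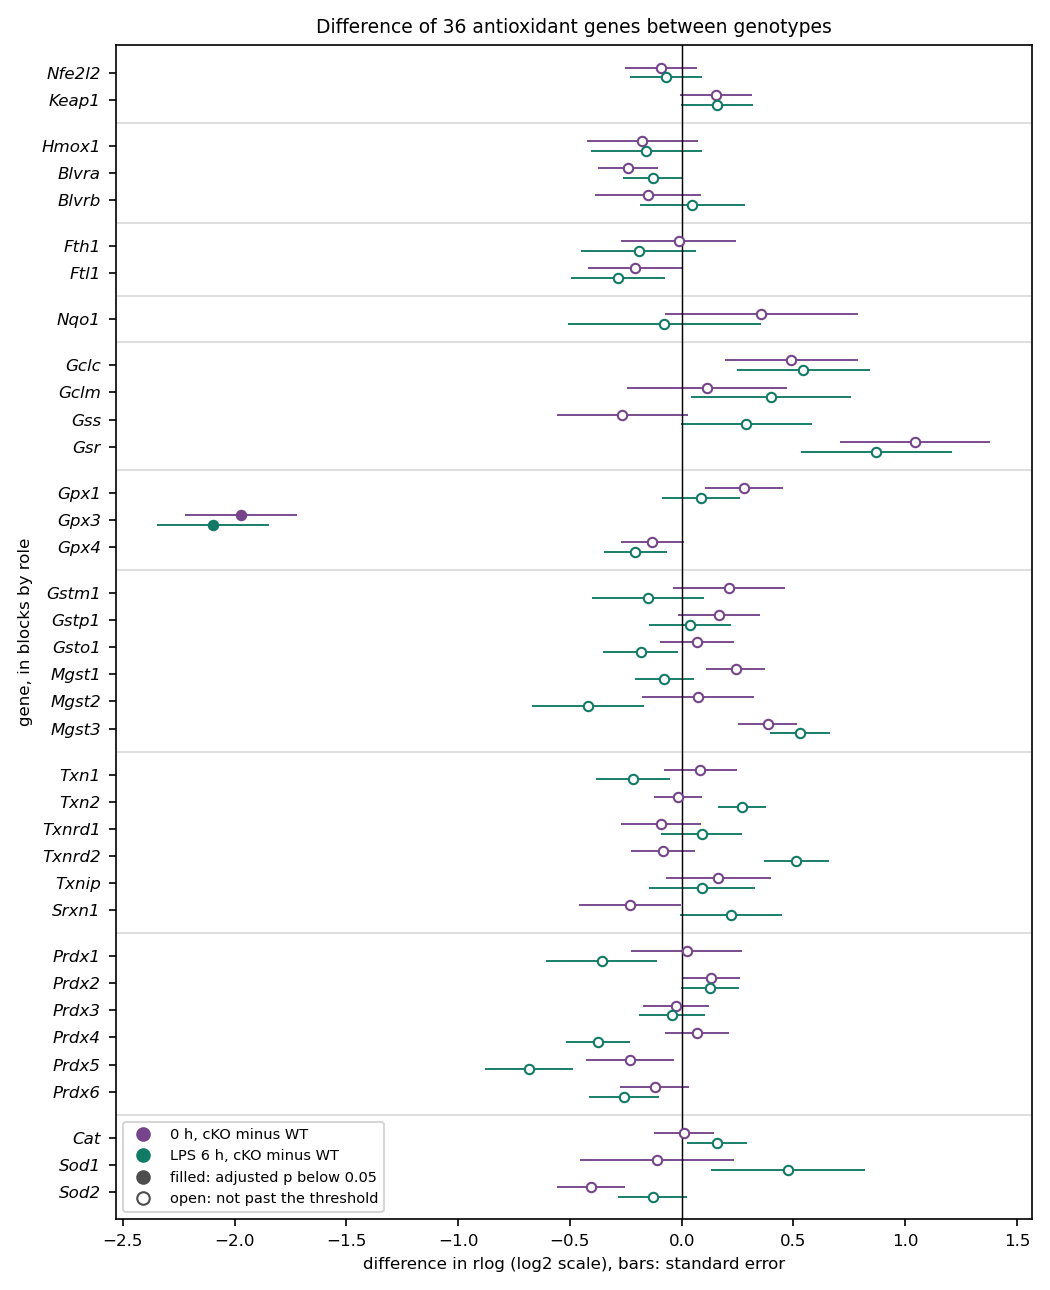
cKO minus WT difference in rlog (x axis, log2 scale) for the 36 tested antioxidant genes (y axis, in blocks by role), with 0 h in purple and LPS 6 h in green, bars for the standard error and filled points for an adjusted p under 0.05. Gpx3 near -2 has the only filled points, and Gsr lies farthest to the right at 1.04 and 0.87.

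Gsr, which returns oxidised glutathione to its reduced form, was the gene farthest in the other direction. Gsr (chr8:33652523-33698163) read 7.35 and 7.62 in untreated WT, 7.63 and 8.32 in LPS-treated WT, 8.08 and 8.98 in untreated cKO, and 8.56 and 9.12 in LPS-treated cKO. At each time both cKO samples lay above both WT samples, but the cKO samples at 0 h were 0.9 apart. The difference of 1.04 (SE 0.34, adjusted p = 0.314) without LPS and that of 0.87 (SE 0.34, adjusted p = 0.178) with it did not get past the threshold. In the authors' deposited table both passed 0.05, at 1.27 (adjusted p = 0.0212) and 1.02 (adjusted p = 0.0414). Without cKO 0 h replicate 2 the 0 h difference of Gsr was 0.60, and without WT LPS replicate 1 the difference after LPS was 0.53. The authors' test called 0.624% of the 11543 genes higher and 0.901% lower at 0 h, and 2.56% higher and 3.02% lower after LPS. The antioxidant genes it called were Gsr and Gpx3 at both times and Prdx5, lower at -0.69 (adjusted p = 0.0159), after LPS.

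A looser description takes genes whose cKO and WT samples did not overlap and whose means differed by at least 0.5. At 0 h only Gpx3 and Gsr met it, 2 of 36, where 9.43% of all tested genes did. After LPS 6 of 36 met it, where 17.3% of all tested genes did, a share near the background. Besides Gpx3 and Gsr these were Gclc, Mgst3 and Txnrd2, which were higher in cKO, and Prdx5, which was lower. None of these 4 passed the threshold.

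Prdx5 after LPS had a difference of -0.68 (SE 0.20, adjusted p = 0.0883), with the cKO samples at 13.90 and 14.05 below the WT samples at 14.62 and 14.70. After quantile normalization it was -0.32. Txnrd2 differed by 0.51 (SE 0.14, adjusted p = 0.0852), with its cKO samples at 7.07 and 7.15 above 6.64 and 6.55 in WT. Its levels at 0 h overlapped between genotypes. Mgst3 read 8.32 and 8.43 in untreated WT, 7.49 and 7.73 in LPS-treated WT, 8.80 and 8.71 in untreated cKO, and 8.12 and 8.16 in LPS-treated cKO. It was above WT at both times without overlap, by 0.38 (SE 0.13, adjusted p = 0.353) and 0.53 (SE 0.13, adjusted p = 0.0658). Gclc read 5.03 and 5.50 in untreated WT, 4.70 and 5.58 in LPS-treated WT, 5.68 and 5.82 in untreated cKO, and 5.78 and 5.59 in LPS-treated cKO. Its difference after LPS, 0.54 (SE 0.30, adjusted p = 0.330), rested on WT LPS replicate 1, without which it was 0.10, and it was 0.99 without WT LPS replicate 2.

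**Figure D5:**
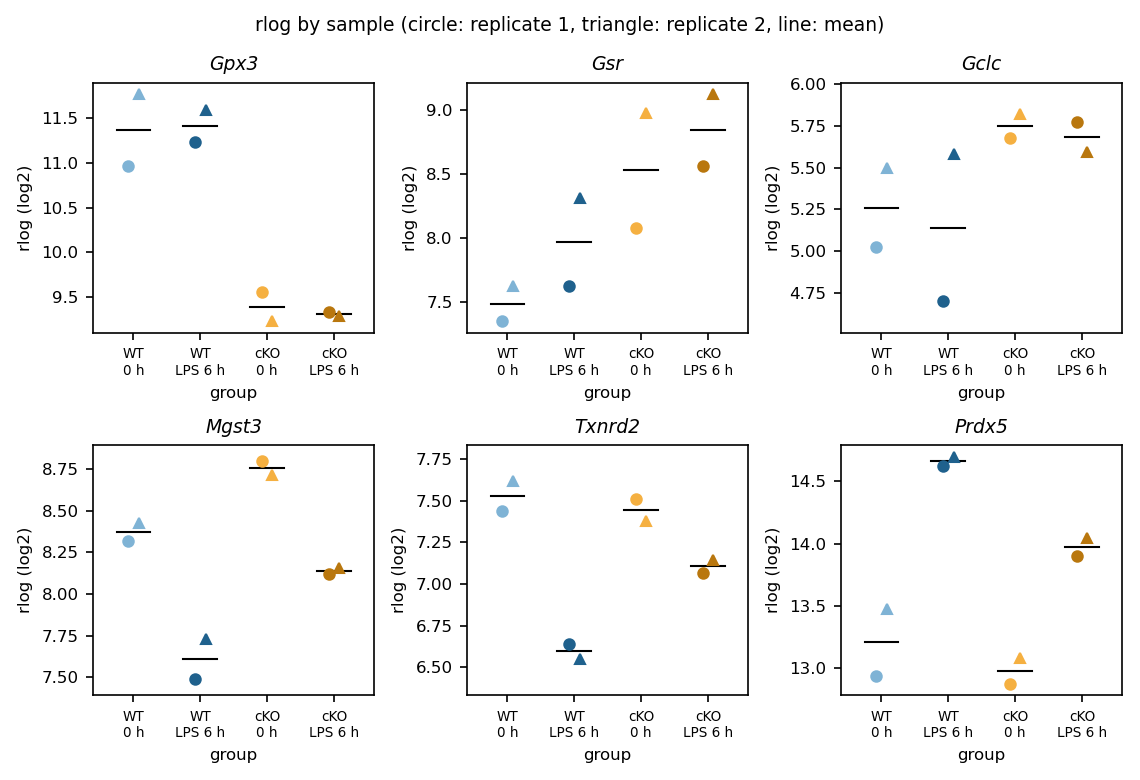
rlog (y axis, log2 scale, a separate range for each gene) in each of the 8 samples by group (x axis) for the 6 genes whose cKO and WT samples did not overlap and differed by at least 0.5 at 0 h or after LPS, with a circle for replicate 1, a triangle for replicate 2 and a line for the mean. Gpx3 is lower in cKO in all samples, while the Gclc gap after LPS rests on WT LPS replicate 1 at 4.70.

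A direct test of whether the LPS response differed between genotypes called none of the 36 genes, and none of the 11543 tested genes (0%), with limma. At an unadjusted p under 0.05 there were 751 genes, and Txnrd2 was the only antioxidant gene among them. Its response was 0.60 higher in cKO, that is a smaller fall (SE 0.20, adjusted p = 0.701). So the 4 genes called for LPS in WT alone, Prdx1, Prdx4, Txnrd2 and Sod1, are not shown to respond differently in cKO. The interaction values of these were -0.38, -0.44, 0.60 and 0.59. For all 6 peroxiredoxins the value was below 0, from -0.45 for Prdx5 to -0.002 for Prdx2, and none had an unadjusted p under 0.05. After quantile normalization Prdx2 stood at 0.12, Prdx1 at -0.03 and Prdx5 at -0.22, so the shared sign did not hold.

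Beyond the 39 genes, 74 further genes of these pathways were listed and 64 of them tested. In WT 13 rose and 11 fell with LPS, and in cKO 13 rose and 13 fell, with medians of -0.07 and -0.03. Against the shares of all tested genes given above (22.5% and 19.7% in WT, 19.6% and 17.5% in cKO) these counts are near the background. Among the partners of NRF2, Mafk, a small MAF protein that pairs with it, rose by 1.0 and 1.16. Bach1, a repressor that competes at the same elements, fell by 0.63 and 0.71 on the log2 scale. The authors' deposited table did not call Bach1 in WT (adjusted p = 0.147) or cKO (adjusted p = 0.120). The Bach1 call was lost in WT without WT 0 h replicate 1 (-0.66) or 2 (-0.60) or LPS replicate 1 (-0.45), and in cKO without 0 h replicate 2 (-0.59) or LPS replicate 2 (-0.58). Of the NADPH-supplying enzymes 3 of 8 fell in each genotype, where 19.7% and 17.5% of all tested genes fell. Idh1, cytosolic isocitrate dehydrogenase, had the deepest fall, at -3.42 (adjusted p = 3.07e-05) and -2.83 (adjusted p = 0.000105). Mthfd2, a mitochondrial folate enzyme, rose in cKO by 1.71 (adjusted p = 0.0361), a call lost without cKO 0 h replicate 1 (1.5) or 2 (1.91) or LPS replicate 2 (0.94). In WT its difference of 1.17 did not pass the threshold, while the authors' deposited table called it higher there (1.38, adjusted p = 0.00486).

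Iron-handling genes went both ways, with 3 of 12 higher and 3 lower in WT and 2 higher and 3 lower in cKO (of all tested genes 22.5% and 19.7%, and 19.6% and 17.5%). Cp, ceruloplasmin, a copper ferroxidase, rose by 2.79 and 2.34, and Steap3, an endosomal iron reductase, fell by 1.72 and 1.44 on the log2 scale. Of 8 tested sestrins and other stress genes, 1 rose and 3 fell in each genotype, beside the same background of 19.7% and 17.5% lower. Sesn1, a sestrin, had the deepest fall, at -3.48 (adjusted p = 1.27e-05) and -2.21 (adjusted p = 0.000101), and Esd, esterase D, rose by 0.88 and 0.63. Of the 10 glutaredoxins and methionine sulfoxide reductases, Txnl1, a thioredoxin-like protein, rose by 0.61 and 0.47. Txnl1 was not called in the authors' deposited table in WT (adjusted p = 0.0566) or cKO (adjusted p = 0.0772). Msrb2, the mitochondrial methionine sulfoxide reductase, fell in cKO by 0.98 on the log2 scale. Its WT difference of -0.54 did not pass the threshold. Among 10 other glutathione transferases Gstt3 fell by 0.83 and 0.91 on the log2 scale. Gstt3 was also not called in the authors' deposited table in WT (adjusted p = 0.203) or cKO (adjusted p = 0.104). Gstt1, counted among the rises in WT, had a mean rlog of 4.03 in WT after LPS and of 2.58 to 3.21 in the other groups. It entered the test only through the group where it was high, so its difference of 1.23 is given as a description. After quantile normalization the rises of Txnl1 (0.35 and 0.27) and Esd (0.11 and 0.05) missed the threshold, as did the WT fall of Gstt3 (-0.76). The WT call of Txnl1 was lost without WT 0 h replicate 2 (0.57) or LPS replicate 1 (0.46). The WT call of Gstt3 held only without WT 0 h replicate 2 or LPS replicate 1 among the 8 libraries, and without WT LPS replicate 2 the value was -0.44. In cKO the calls of Gstt3 (-0.94 to -0.88) and Esd (0.50 to 0.76) were each lost without any 1 of the 4 cKO libraries. The cKO call of Txnl1 was lost without cKO 0 h replicate 1 (0.49) or 2 (0.46), cKO LPS replicate 1 (0.34) or either WT 0 h library (0.47).

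Between genotypes none of the 64 passed the threshold at 0 h, and 2 did after LPS, both lower in cKO, where 2.46% of all tested genes were lower. They were Chac2 and Ggct, which break down glutathione and its gamma-glutamyl products. Chac2 read 8.36 and 8.31 in WT after LPS and 7.34 and 6.93 in cKO, a difference of -1.20 (SE 0.18, adjusted p = 0.016). Ggct read 7.79 and 7.50 in WT after LPS and 6.93 and 6.86 in cKO, a difference of -0.75 (SE 0.16, adjusted p = 0.0437). Both had risen with LPS in both genotypes by limma. The authors' deposited table left the LPS rise of Chac2 in cKO short of 0.05 (0.71, adjusted p = 0.158). The Chac2 call was lost without cKO LPS replicate 1 (-1.41, adjusted p = 0.0754) or 2 (-1.0, adjusted p = 0.156) or WT LPS replicate 1 (-1.18, adjusted p = 0.0774). The Ggct call was lost without any 1 of the 8 libraries, at adjusted p-values from 0.0508 without cKO 0 h replicate 2 to 0.246 without cKO LPS replicate 2 (-0.71). Slc7a11 differed by -1.02 (adjusted p = 0.0548) at 0 h and -0.62 (adjusted p = 0.0663) after LPS, both short of the threshold, with every cKO sample below the WT samples of the same time. In the authors' deposited table Slc7a11 (-1.11, adjusted p = 0.000143), Sesn2 (-1.07, adjusted p = 0.0156) and Txnrd3 (1.82, adjusted p = 0.0452) were called at 0 h. After LPS that deposited table of the authors called Chac2 (-1.32, adjusted p = 0.000785) and not Ggct (-0.83, adjusted p = 0.125).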

How the data were processed

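Poly(A) RNA of 8 macrophage samples, 4 groups of 2 by the labels' genotype and time, was sequenced after 15 PCR cycles, per the labels. Named without roles in the submitters' processing notes are DESeq2, featureCounts, HISAT2 2.1.0, CASAVA and the build GRCm38; the sources used here state no strand setting or annotation. The authors deposited 1 table with rlog (log2) values per sample and, per the file headers, the authors' own log2 fold changes with raw and adjusted p-values. It holds no counts, so depth is unknown and no interval from counts is given.

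The test took the 11543 of 55226 genes whose rlog averaged 3 or more and used limma 3.58.1 in R 4.3.3: 4 group means fitted to all 8 samples, eBayes with a variance trend, 4 residual and 4.4 prior degrees of freedom, two-sided, in 5 comparisons. P-values were adjusted by Benjamini-Hochberg across all of these genes, and the threshold was 0.05. Folds are 2 to the power of the rlog difference. The fit was tested on simulated data.

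The 39 genes, role groups, 7 further lists and markers were chosen with earlier results of these data known. Sample values were given in full for Nfe2l2 and Keap1, genes past the threshold between genotypes, genes whose genotypes did not overlap and differed by at least 0.5, and the largest rise and fall with LPS past the threshold in each role group. Values in full for Hmox1, Nqo1, Sod1, Sod3, Txn1 and Slc7a11 were added after their values were seen. From each further list the largest LPS rise and fall among genes past the threshold and every genotype call were named; Sesn2, Txnrd3, Slc3a2 and Abcc1 were added after their values were seen. Positions are from GENCODE M21 on GRCm38, and promoters from RefSeq on GRCm38.p6. Alternatives were no filter, a filter of 5, quantile normalization, median centring, no variance trend, a robust fit, fits of 2 groups, the replicate block and leaving out each sample.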

Additional observations from a re-analysis of the deposited data

How the results depend on the processing

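Counts of the 36 antioxidant genes past the threshold moved as follows. With LPS in WT, 10 were higher in the fit reported, 6 with no filter on low values and 4 after quantile normalization, and 6 to 11 when each library was left out in turn; 10 were lower, and 8 to 10 with a library left out. With LPS in cKO, 8 were higher, 4 with no filter and 3 after quantile normalization, and 4 to 9 with a library left out; 8 were lower, and 6 to 10 with a library left out. Quantile normalization also turned the WT difference of Prdx2 from 0.44 to -0.079, the only value that changed sign among the calls recomputed. At 0 h the 1 gene lower in cKO, Gpx3, became 0 with no filter (adjusted p = 0.100), with no variance trend (adjusted p = 0.0650), in a fit of the 2 groups alone (adjusted p = 0.123) and without some single libraries, giving 0 to 1. After LPS the 1 gene lower became 0 with no filter (adjusted p = 0.0505), and was 0 to 1 with a library left out, while the count higher was 0 in the fit reported and 0 to 1. The interaction called 0 of the 36 in each setting run. For all tested genes, cKO against WT after LPS gave 174 higher and 284 lower, and 115 and 120 after quantile normalization. Where a left-out library leaves 1 sample in a group, that sample is taken to vary like the others. The cause of these moves was not tested.

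Replicate numbers are shared between groups but not stated to pair samples. The deviations of same-numbered samples correlated across genes at 0.222 between the WT groups and 0.311 between the cKO groups, and at -0.0418 between the genotypes at 0 h and 0.2 after LPS. With the replicate block, Gsr became higher in cKO without LPS (1.04, adjusted p = 0.0404) and with it (0.87, adjusted p = 0.0237), so 1 gene was higher at each time, and Prdx5 became lower after LPS (-0.68, adjusted p = 0.0453), which made 2. The depth behind the values is unknown, which limits what can be said of genes with low values such as Me1, Sod3 and Gclc.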
